A study of Mus musculus with 12 samples.

Results

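C1q-positive wells were those in which transcripts of the 3 chains of complement component C1q (C1qa, C1qb and C1qc) made up at least 5 of every 10,000 unique molecular identifiers (UMIs, each standing for 1 captured mRNA molecule), among wells with at least 1000 UMIs outside the added ERCC control RNAs. Of the 3088 wells that reached 1000 UMIs, 179 were C1q-positive and 2909 were not; the 2909 are called other wells here. A further 1520 of the 4608 wells held fewer UMIs and were not used. The C1q chains chose the wells, so their levels are given as a description, and the chains were left out of every count table that was tested.

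C1q is made in the body mainly by tissue macrophages, and its 3 chains assemble into the molecule that starts the classical complement pathway. Macrophages of the fetal liver stand at the centre of erythroblastic islands, where they hold maturing red cell precursors through adhesion molecules such as Vcam1, take up the nuclei that the precursors expel, and handle the iron of worn-out cells. Haem that they take up is opened by the haem oxygenase Hmox1, and the freed iron leaves through the exporter ferroportin, encoded by Slc40a1. Haematopoietic stem and progenitor cells of the same organ are sorted as LSK cells, which lack lineage antigens and carry Sca-1 (encoded by Ly6a) and Kit on their surface.

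The study sequenced single LSK cells, sorted by flow cytometry from embryonic day 18.5 fetal liver of C57BL/6J mice, with SORT-seq, a plate method in which the cell in each well receives its own barcode. The 12 plates were 4 of double mutants (homozygous Pcna K164R and no Rev1), 3 of Rev1 knockouts, 2 of Pcna K164R homozygotes and 3 of wild type (WT), sorted in 3 sessions. Pcna K164R removes the lysine of the replication clamp that takes up ubiquitin, and Rev1 is a translesion DNA polymerase. The labels did not state that plates came from separate animals, so each p-value measures the spread between plates, nor how many cells a well received, and all groups share the LSK gate. Every table held more wells than the plate size that the series' text names.

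Plates held 212938 (double mutant replicate 3) to 11617420 (double mutant replicate 1) UMIs in kept wells. The library labelled double mutant replicate 4 had 13.7 Rev1 UMIs per 1000000 UMIs (33 UMIs), against its label. The other double mutant plates had 1.29 to 4.70, where the highest value is 1 Rev1 UMI in double mutant replicate 3. Rev1 knockout plates had 1.35 to 6.00, Pcna K164R plates 7.86 and 11.3, and WT plates 11.0 to 20.5. The counts of genes, and those list counts that rest on these libraries, are also given without double mutant replicates 3 and 4. Plates of 1 genotype differed in their summed gene counts by more than UMI counting noise in all 13 pairs, with a chi-square of at least 8.11 per degree of freedom. This value does not cover the noise from which cells each plate received.

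The 3 C1q genes lie side by side on chromosome 4 of GRCm38, at 136880126 to 136886200 (C1qb), 136889801 to 136892936 (C1qc) and 136895916 to 136898844 (C1qa). Cd5l lies on chromosome 3 at 87357881 to 87371074 and Vcam1 on the same chromosome at 116110020 to 116129688. Promoter windows from RefSeq (GRCm38.p6, 250 bases before to 50 after the annotated start) were matched by symbol for 7 of 11 genes looked up, and 5 that stand for the macrophage and the red cell genes described here are printed, 5′ to 3′ on the gene's strand. Capitals mark GAGGAA, the core recognised by the macrophage factor PU.1, or AGATAA, a core recognised by GATA factors, each searched on both strands (TTCCTC and TTATCT on the other strand).
C1qb (chr4:136886151-136886450, minus strand): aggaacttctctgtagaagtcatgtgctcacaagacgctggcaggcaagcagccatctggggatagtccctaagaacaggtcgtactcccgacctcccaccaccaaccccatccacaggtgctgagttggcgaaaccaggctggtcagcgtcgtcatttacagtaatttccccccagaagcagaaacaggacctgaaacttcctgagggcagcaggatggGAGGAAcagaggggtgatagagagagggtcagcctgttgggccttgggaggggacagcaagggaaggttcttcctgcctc
C1qc (chr4:136892865-136893164, minus strand): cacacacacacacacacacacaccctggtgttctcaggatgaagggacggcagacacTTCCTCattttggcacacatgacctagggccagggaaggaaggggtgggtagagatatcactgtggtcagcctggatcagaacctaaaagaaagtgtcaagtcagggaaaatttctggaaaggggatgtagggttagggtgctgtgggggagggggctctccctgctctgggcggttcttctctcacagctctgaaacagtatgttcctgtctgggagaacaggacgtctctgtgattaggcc
Cd5l (chr3:87357631-87357930, plus strand): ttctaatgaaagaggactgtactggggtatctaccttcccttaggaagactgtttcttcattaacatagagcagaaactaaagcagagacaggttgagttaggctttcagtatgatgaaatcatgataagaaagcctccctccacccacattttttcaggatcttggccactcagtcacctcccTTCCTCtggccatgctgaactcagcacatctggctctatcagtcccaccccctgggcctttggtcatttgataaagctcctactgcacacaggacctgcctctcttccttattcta
Mrc1 (chr2:14229164-14229463, plus strand): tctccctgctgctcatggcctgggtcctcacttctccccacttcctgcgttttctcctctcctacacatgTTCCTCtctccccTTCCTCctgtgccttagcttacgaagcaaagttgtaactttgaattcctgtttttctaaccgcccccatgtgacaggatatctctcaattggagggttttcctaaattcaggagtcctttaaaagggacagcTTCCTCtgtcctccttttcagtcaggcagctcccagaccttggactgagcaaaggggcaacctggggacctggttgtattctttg
Epor (chr9:21963527-21963826, minus strand): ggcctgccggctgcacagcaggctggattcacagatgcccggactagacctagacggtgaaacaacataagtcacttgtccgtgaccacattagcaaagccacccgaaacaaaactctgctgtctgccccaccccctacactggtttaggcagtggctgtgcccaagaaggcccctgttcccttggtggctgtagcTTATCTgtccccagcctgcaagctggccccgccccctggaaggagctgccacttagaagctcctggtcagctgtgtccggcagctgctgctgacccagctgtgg
GAGGAA occurred once in the C1qb window, beginning 30 bases before the start, and once in reverse in the C1qc window, 193 bases before it. The Cd5l window held 1 reverse match, 66 bases before the start, and that of Mrc1, the mannose receptor of macrophages, held 3, beginning 180, 167 and 35 bases before it. The window of Epor, the erythropoietin receptor, held no GAGGAA and 1 reverse match to AGATAA, 54 bases before the start. Of the remaining windows matched, Gata1 held 1 GAGGAA and no AGATAA, and Klf1 held neither. GAGGAA was present in 28.3% of all 32851 promoter windows and AGATAA in 11.2%, and no 2 matches overlapped. A match of letters is a description and shows no binding.

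The summed C1q level of the 179 wells was 5.02 per 10,000 UMIs at its lowest, 10.02 at its median and 151 at its highest, from 1 to 151 C1q UMIs in a well with a median of 27. All 3 chains were seen in 153 wells, and 16 wells passed the rule on 1 or 2 C1q UMIs. Of the other wells, 658 of 2909 (22.6%) held at least 1 C1q UMI, and their summed C1q level was 0.0635 to 0.744 per 10,000 by plate. WT replicate 1 had the highest of these levels and also the largest number of C1q-positive wells. The 10 wells just inside the threshold had 5.02 to 5.28 C1q UMIs per 10,000 and the 10 just outside had 4.48 to 4.99. Among them, Vcam1 was seen in 7 wells inside and 4 outside, Cd5l in 7 and 5, Slc40a1 in 8 and 5, Hmox1 in 6 and 8, and Kit in 8 and 8.

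C1q-positive wells were found on every plate and under every genotype label. They numbered 42 of 814 kept wells in the 4 double mutant plates (18, 14, 4 and 6 by plate), 43 of 783 in the 3 Rev1 knockout plates (1, 17 and 25), 50 of 634 in the 2 Pcna K164R plates (26 and 24) and 44 of 857 in the 3 WT plates (38, 3 and 3). Plates of the same genotype thus differed widely: Rev1 knockout replicate 1 had 0.306% C1q-positive wells (exact 95% binomial interval 0.0077 to 1.69%) and Rev1 knockout replicate 3 had 10.3% (6.77 to 14.8%), while WT replicates 1 and 2 had 9.97% (7.16 to 13.4%) and 0.984% (0.203 to 2.85%). Such intervals cover counting error only. By session, 120 of 1640, 5 of 409 and 54 of 1039 kept wells were C1q-positive, and no session held all 4 genotypes. No comparison of genotypes is made from these counts.

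**Figure D1:**
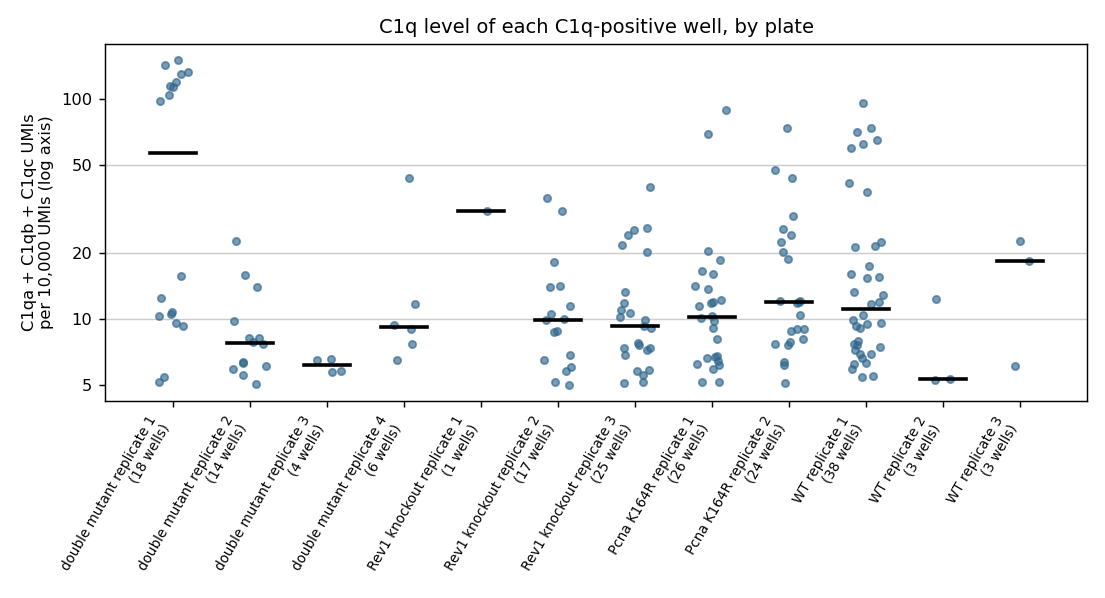
Summed level of C1qa, C1qb and C1qc in each C1q-positive well (1 point per well, UMIs per 10,000 UMIs of the well, log axis) by plate, with double mutant plates first and WT plates last. All 12 plates hold at least 1 such well, and the 18 wells of 50 or more come from 4 plates.

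Genes of resident macrophages accompanied the C1q chains. Plate levels in what follows are UMIs of a gene per 10,000 UMIs summed over the wells of 1 class, for the 11 plates with at least 3 C1q-positive wells, given as the lowest, the median and the highest plate. Cd5l, a secreted scavenger protein of tissue macrophages, had 0.780, 2.53 and 7.77 in C1q-positive wells, against 0.0141, 0.0619 and 0.150 in other wells. Vcam1, the adhesion molecule of the erythroblastic island, had 0.780, 2.31 and 4.71 in C1q-positive wells, against 0.0128, 0.050 and 0.135 in other wells. No plate of one class reached the range of the other for either gene, and all 11 plates were higher in C1q-positive wells. For both genes the lowest C1q-positive level, that of double mutant replicate 3, was 1 UMI among 12827, so the separation there rests on 1 molecule.

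The log2 fold change of C1q-positive over other wells was 5.98 ± 0.25 for Cd5l and 5.70 ± 0.24 for Vcam1 (± standard error of the edgeR fit over 11 plates). The scavenger receptors Mrc1 (5.27 ± 0.21), Marco (5.68 ± 0.31) and Msr1 (5.87 ± 0.33), the receptor for dying cells Timd4 (5.81 ± 0.28) and the receptor tyrosine kinase Axl (3.78 ± 0.17) differed on the same scale. Of 27 resident macrophage genes measured, 11 passed the filter on low counts, and they passed through their level in C1q-positive wells, so no count or median over them is given. The defining marker Cd163 had a plate median of 0 per 10,000 in C1q-positive wells, against 0.00221 in other wells, Siglec1 0.115 against 0.00356, and Mertk 0.0486 against 0.00255. Lyz2, the lysozyme of myeloid cells, had a median of 0.155 in C1q-positive wells and 0.0758 in other wells.

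Within single wells, 155 of the 179 (86.6%) held at least 3 of 6 resident macrophage genes (Vcam1, Cd5l, Emr1, which encodes F4/80, Slc40a1, Hmox1 and the cathepsin Ctss), and 12 held none. Of the other wells, 137 of 2909 (4.71%) held at least 3. When each well was thinned to 1000 UMIs, Vcam1 was seen in 21.8% of C1q-positive wells and 0.378% of other wells, Cd5l in 29.1% and 0.688%, and Slc40a1 in 34.6% and 1.99%.

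The same wells mostly held progenitor transcripts too. Kit was seen in 143 of 179 C1q-positive wells (79.9%) and in 2630 of 2909 other wells (90.4%), and in 23.5% and 28.7% after thinning. Of the 155 wells with 3 or more resident macrophage genes, 131 also held Kit and 24 did not. The wells are for that reason called by the rule and given no cell type name. Macrophage and progenitor transcripts of 1 well cannot be assigned to 1 cell or to several from these counts, and no doublet caller was run.

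The C1q level set the wells apart among themselves. They fell into 89 wells of 5 to below 10 C1q UMIs per 10,000, on 11 plates, 47 of 10 to below 20, on 10 plates, 25 of 20 to below 50, on 9 plates, and 18 of 50 or more. The last band came from 4 plates of a single session: 9 wells of double mutant replicate 1, 2 and 1 of Pcna K164R replicates 1 and 2, and 6 of WT replicate 1. Its wells were also small: the median well held 7561.5 UMIs, 0.315 of the median of its plate, against 20934, 28512 and 13419 UMIs in the bands below, which were 1.40, 1.41 and 0.756 of it. Other wells with no C1q UMI held 14362 and those with some held 26509.5. The part of depth in the differences between bands was not tested.

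The mean levels of Vcam1, Cd5l, Slc40a1 and Hmox1 were higher in each higher band. From the lowest band to the highest, the mean level per well was 0.992, 2.79, 5.76 and 16.5 per 10,000 for Vcam1 and 1.37, 3.67, 8.55 and 28.1 for Cd5l. Slc40a1 had 2.79, 5.19, 12.4 and 43.0, and Hmox1 1.72, 3.57, 12.5 and 26.1. Spic, the transcription factor of macrophages that recycle iron, did not keep this order, with 0.132, 0.386, 0.282 and 2.64. Set against C1q itself, the levels lay closer together: per 100 C1q UMIs there were 17.7, 23.3, 18.2 and 19.0 UMIs of Vcam1, 21.5, 24.8, 22.4 and 28.1 of Cd5l, and 47.1, 40.2, 37.2 and 50.8 of Slc40a1. Other wells with some C1q had 11.9 Vcam1, 15 Cd5l and 57.9 Slc40a1 UMIs per 100 C1q UMIs. Over the 179 wells, the rank correlation with the C1q level was 0.678 for Vcam1, 0.668 for Cd5l and 0.651 for Slc40a1, against -0.186 for Kit and -0.161 for the UMIs of the well; the points share plates, and each level has the UMIs of its well as denominator.

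Progenitor and red cell genes took another course. Kit had a mean of 3.83, 4.59, 2.48 and 0.462 per 10,000 across the 4 bands, against 3.84 in other wells with no C1q UMI, and was seen in 76 of 89, 44 of 47, 18 of 25 and 5 of 18 wells. Klf1, the erythroid master regulator, had 1.83, 2.19, 1.15 and 0.286, against 0.276 in wells with no C1q UMI and 0.826 in other wells with some. Gata1, its partner in the red cell programme, had 1.63, 2.03, 0.701 and 0.319, against 0.366 in wells with none and 0.722 in other wells with some. Tfrc, the transferrin receptor that brings iron into erythroid precursors, had 2.91, 3.89, 1.91 and 1.00, against 1.08 in wells with none and 1.84 in other wells with some. All 18 wells of the highest band together held 6 UMIs of Kit, 4 of Cd34, 4 of Klf1, 6 of Gata1 and 1 of Epor. Klf1, Gata1 and Tfrc were thus highest in wells of 10 to below 20 C1q UMIs per 10,000.

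**Figure D2:**
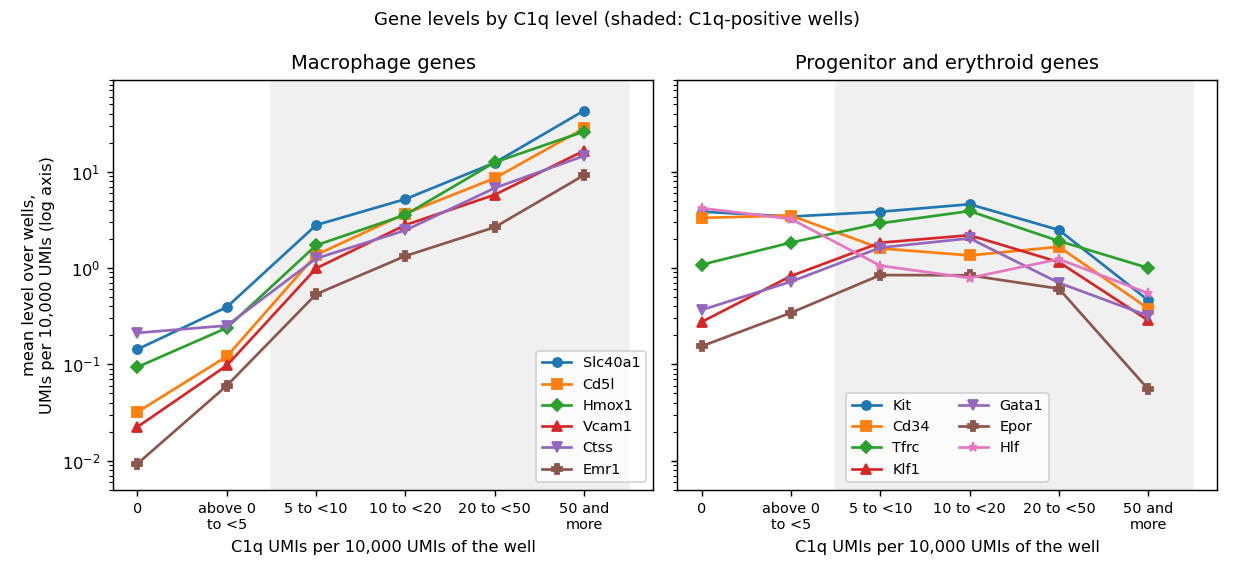
Mean level per well (UMIs per 10,000 UMIs, log axis) of macrophage, red cell and progenitor genes in wells ordered by their C1q level, from 0 to 50 and more. Vcam1 reaches 16.5 in the highest band, while Klf1 peaks at 2.19 in wells of 10 to below 20 and has 0.286 in the highest band.

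Levels were also compared inside plates. On the 6 plates with at least 2 C1q-positive wells on each side of 20 C1q UMIs per 10,000, wells of 20 or more had less Kit than wells below 20 on 6 of 6 plates, with plate medians of 1.59 per 10,000 at 20 or more and 3.88 below 20. Gata1 was lower on 6 of 6 plates (medians of 0.752 at 20 or more and 1.91 below 20) and Klf1 on 5 of 6 (1.34 at 20 or more and 2.18 below 20). Cd34 was lower on 4 of 6 plates and higher on 2 (0.878 at 20 or more and 1.07 below). Vcam1 was higher on 6 of 6 plates, with medians of 7.46 at 20 or more and 2.21 below 20, as were Cd5l (8.63 at 20 or more and 2.15 below) and Slc40a1 (17.5 at 20 or more and 3.79 below). Hmox1 was higher on 5 of 6 plates (11.3 at 20 or more and 2.43 below). These values describe wells chosen and ordered by C1q, and no test was made of them.

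Over all genes, edgeR's quasi-likelihood test with a term for each plate compared the summed counts of C1q-positive wells with those of the other wells of the same plate. Of 7869 genes tested on 11 plates, 1222 (15.5%) were higher and 1395 (17.7%) lower in C1q-positive wells at a Benjamini-Hochberg adjusted p under 0.05, and the median log2 fold change of all genes was -0.02. Without double mutant replicates 3 and 4, 1650 of 9354 genes were higher and 1571 lower. With RLE size factors in place of TMM, 1030 genes were higher and 1759 lower, which put 36.9% of the calls on the higher side instead of 46.7%. Levels of all 11 plates did not overlap between the classes for 25 genes that were higher (0.318% of those tested) and 15 that were lower (0.191%).

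Red cell genes were higher in C1q-positive wells as a group. Of 22 erythroid genes measured, 20 were tested, 18 of them rose (against 15.5% of all genes tested) and 1 fell, with a median log2 fold change of 1.81 (-0.02 for all genes). Klf1 had 0, 2.28 and 3.77 UMIs per 10,000 in C1q-positive wells, against 0.0204, 0.537 and 2.10 in other wells. The ranges overlapped, and 10 of 11 plates were higher in C1q-positive wells; the exception was double mutant replicate 3, whose 4 C1q-positive wells held 12827 UMIs in all and none of Klf1. The log2 fold change of Klf1 was 1.98 ± 0.29 (edgeR adjusted p = 6.4e-06).

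Gata1 had 0, 1.68 and 2.78 per 10,000 in C1q-positive wells, against 0.0919, 0.422 and 1.84 in other wells, and rose by 1.76 ± 0.24 on the log2 scale (edgeR adjusted p = 1.79e-06). Epor, which keeps red cell precursors alive, had 0, 1.15 and 2.01 in C1q-positive wells, against 0.0485, 0.278 and 1.11 in other wells, and rose by 1.80 ± 0.22 (3.04e-07). Both were higher on 10 of 11 plates. Rhag, which encodes the Rh-associated glycoprotein of the red cell membrane, was higher on 11 of 11 plates, with 1.56, 2.75 and 5.12 in C1q-positive wells against 0.0536, 0.751 and 2.33 in other wells, and rose by 2.06 ± 0.24 (2.37e-07). The transferrin receptor Tfrc rose by 1.35 ± 0.15, the erythroid and megakaryocytic repressor Gfi1b by 1.39 ± 0.16 and the water channel Aqp1 by 2.14 ± 0.25. Xpo7, an exportin, was the member that fell, by 0.95 on the log2 scale.

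Genes of haem synthesis were higher too. Of 14 haem synthesis genes measured, 12 were tested, 10 rose (against 15.5% of all genes tested) and 1 fell, with a median log2 fold change of 1.16. Cpox, coproporphyrinogen oxidase, had 1.56, 7.90 and 11.7 per 10,000 in C1q-positive wells, against 0.360, 1.87 and 5.70 in other wells. It was higher on all 11 plates and rose by 2.02 ± 0.22 on the log2 scale (edgeR adjusted p = 1.05e-07). Its lowest C1q-positive level was that of double mutant replicate 3, on very few molecules. Alad, which makes porphobilinogen, rose by 1.58 ± 0.16, the ferrochelatase Fech, which inserts the iron, by 1.72 ± 0.20, and the mitochondrial transporter Abcb10 by 1.63 ± 0.18. Alas1, the first enzyme of the path outside red cells, was the one that fell, by 1.04 on the log2 scale (edgeR adjusted p = 0.000366).

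Globin transcripts did not share that direction. Of 7 globin genes measured 1 was tested, an adult beta globin listed as Beta-s. It had 0, 2.98 and 11.2 per 10,000 in C1q-positive wells, against 0.0281, 6.70 and 17.0 in other wells. It was lower on 9 of 11 plates, and its log2 fold change of -0.70 ± 0.45 did not pass the test (edgeR adjusted p = 0.248). Without Rev1 knockout replicate 3 the value was -1.16 and passed (0.00604). The highest C1q-positive well had 202 Beta-s UMIs per 10,000, and the highest other well 5447.

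**Figure D3:**
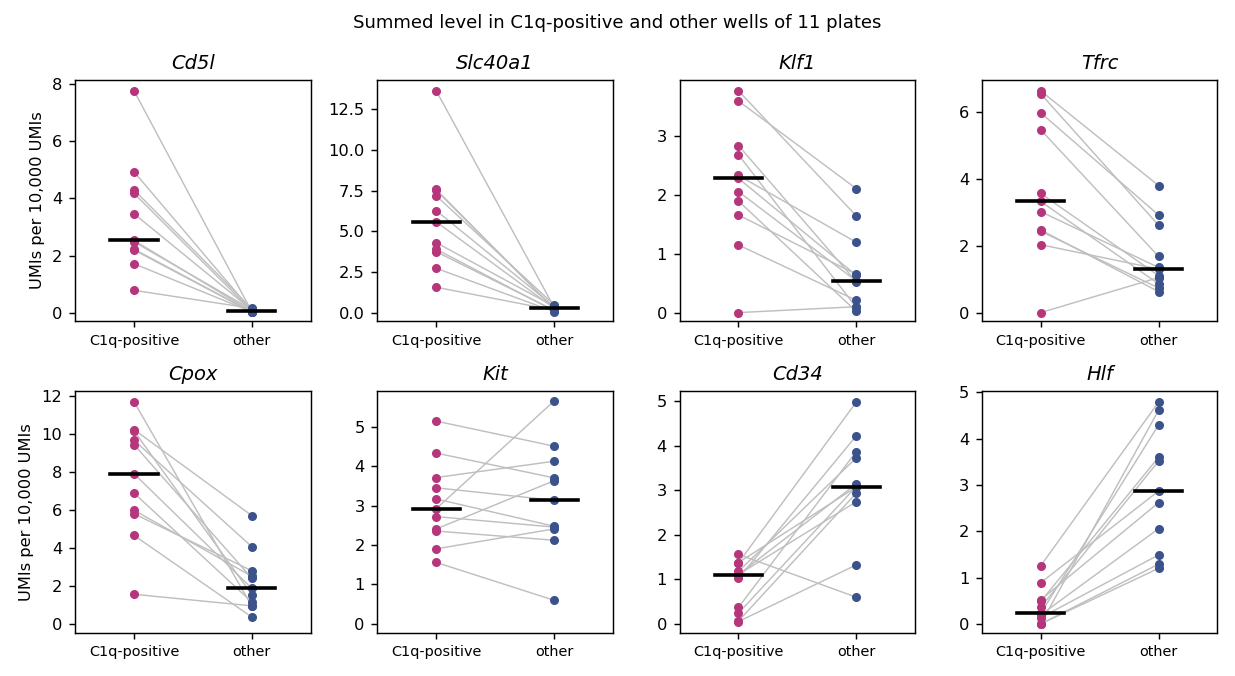
Levels of 8 genes (UMIs per 10,000 summed UMIs) on the 11 plates, with C1q-positive wells at the left and the other wells of the same plate at the right of each panel, joined by a line. Cd5l and Slc40a1 do not overlap between the classes, Klf1 is higher in C1q-positive wells on 10 of 11 plates, Hlf is lower on 11 of 11, and Kit lies in the same range in both. The C1q-positive points of double mutant replicate 3 rest on 12827 UMIs in all.

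Genes that move iron and haem included members of both programmes. Of 25 measured, 3 (Cd163, Slc40a1 and Hmox1) are also on the resident macrophage list. Of the other 22, 15 were tested, 12 rose (against 15.5% of all genes tested) and none fell, with a median log2 fold change of 1.17 (-0.02 for all genes). Without double mutant replicates 3 and 4, 13 of 16 tested rose. Ferroportin (Slc40a1) had 1.56, 5.58 and 13.7 per 10,000 in C1q-positive wells, against 0.0587, 0.254 and 0.487 in other wells, with no overlap and a log2 fold change of 4.59 ± 0.18. Haem oxygenase (Hmox1) had 0.780, 3.39 and 7.45 in C1q-positive wells, against 0.0141, 0.106 and 0.500 in other wells, again with no overlap and a log2 fold change of 5.08 ± 0.27. Both lowest C1q-positive levels are those of double mutant replicate 3, whose 4 C1q-positive wells held 12827 UMIs in all, so they rest on very few molecules. The p-values of Slc40a1 and Hmox1 are not given.

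The remaining iron genes that were tested were present in both classes of wells. The ferritin subunits, which store iron, were the most abundant: Fth1 had 0.780, 23.9 and 45.1 per 10,000 in C1q-positive wells, against 0.80, 10.7 and 20.8 in other wells, and Ftl1 had 5.46, 22.7 and 46.6 in C1q-positive wells, against 4.4, 8.77 and 16.1 in other wells. They rose by 1.17 ± 0.13 and 1.27 ± 0.15 on the log2 scale (edgeR adjusted p = 1.15e-07 and 2.89e-07). Trf, the iron carrier transferrin, rose by 2.86 ± 0.19 and Blvrb, biliverdin reductase B, by 2.20 ± 0.24, each on 10 of 11 plates.

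Lysosomal genes, which break down what a phagocyte takes in, rose widely. Of 24 measured, 3 (Cd68, Lyz2 and Ctss) are also on the resident macrophage list. The other 21 were tested, 20 rose (against 15.5% of all genes tested) and none fell, with a median log2 fold change of 1.30 (-0.02 for all genes). Members with few UMIs in other wells could pass the filter on low counts through their level in C1q-positive wells. Ctsh, for example, had 522 UMIs over all 2909 other wells, so the count is a description. The cathepsin Ctsb had 3.12, 11.1 and 18.6 per 10,000 in C1q-positive wells, against 1.11, 1.56 and 1.89 in other wells, with no overlap, and rose by 2.76 ± 0.16 on the log2 scale (edgeR adjusted p = 7.47e-13). Ctsd rose by 1.94 ± 0.12, Ctsh by 3.43 ± 0.20 and the asparaginyl protease Lgmn by 4.83 ± 0.17. Of 19 lipid handling genes, 11 were tested, 8 rose (against 15.5% of all genes tested) and none fell, with the same limit from the filter. Apoe, the lipid carrier that macrophages secrete, had 1.95, 9.18 and 12.2 per 10,000 in C1q-positive wells, against 0.564, 0.932 and 1.56 in other wells, with no overlap and a rise of 2.97 ± 0.16, and the lipase Lpl rose by 3.94 ± 0.17.

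Most stem cell and progenitor genes were lower. Of the antigen genes, Kit, Ly6e and Spn did not pass the test. Of 16 genes of progenitor and sorting antigens, 12 were tested, none rose and 9 fell (against 17.7% of all genes tested), with a median log2 fold change of -2.01. Cd34 had 0.0544, 1.11 and 1.56 per 10,000 in C1q-positive wells, against 0.60, 3.08 and 4.98 in other wells. It was lower on 10 of 11 plates and fell by 2.11 on the log2 scale, with a standard error of 0.23 (edgeR adjusted p = 9.07e-08). Ly6a, which encodes Sca-1 of the sort gate, had 0, 0.0163 and 0.271 in C1q-positive wells, against 0, 0.494 and 1.19 in other wells, was higher on no plate and fell by 2.54 (standard error 0.26, 4.63e-08).

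The cytokine receptor Flt3 fell by 2.11 on the log2 scale and the surface protein Cd93 by 2.12. Kit had 1.56, 2.92 and 5.15 per 10,000 in C1q-positive wells, against 0.60, 3.14 and 5.66 in other wells. The ranges lay over each other, 7 of 11 plates were higher, and the log2 fold change of 0.04 ± 0.12 did not pass the test (edgeR adjusted p = 0.826).

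Of 30 transcription factors of stem and progenitor cells, 25 were tested, 4 rose and 17 fell, with a median log2 fold change of -1.51. Hlf, a factor of stem cells, had 0, 0.229 and 1.25 per 10,000 in C1q-positive wells, against 1.20, 2.87 and 4.78 in other wells, was lower on all 11 plates, and fell by 2.65 on the log2 scale (standard error 0.20, edgeR adjusted p = 1.54e-10). Mecom fell by 3.16, Mycn by 2.43, Hoxa9 by 2.47, Meis1 by 1.97 and the fetal chromatin factor Hmga2 by 1.59. Among all genes tested, 15.5% were higher and 17.7% lower, so the 4 of 25 factors that rose are named as a description only. They were Gfi1b and, named after their values were seen, Tal1 (0.78), Zfpm1 (0.76) and Myc (0.65). Tal1 and Zfpm1, a cofactor of Gata1, also act in red cell development.

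Cell cycle genes were read by phase, with no test between phases. Of 24 genes of G2 and mitosis, all were tested, 14 fell and 1, cyclin A2 (Ccna2), rose (0.35), against 17.7% of all genes lower and 15.5% higher, with a median log2 fold change of -0.47; the mitotic kinesin Kif23 and the spindle protein Nusap1 each fell by 1.29 and the topoisomerase Top2a by 0.96. Ccna2 lost its call without Rev1 knockout replicate 2 or 3 or Pcna K164R replicate 1 (edgeR adjusted p = 0.0533 to 0.0588). Of 23 S phase genes, 22 were tested, 5 rose and 1 fell, with a median of 0.11, and without double mutant replicates 3 and 4, 9 rose and none fell. Those that rose were cyclin E1 (Ccne1, 1.31 ± 0.13), the licensing factor Cdc6 (0.83 ± 0.14), Rrm2 (0.44), Mcm2 (0.37) and Slbp (0.37), and the one that fell was Gins2 (-0.36). Gins2 lost its call without Rev1 knockout replicate 2, Pcna K164R replicate 1 or 2, or WT replicate 1 (edgeR adjusted p = 0.0595 to 0.0925). Pcna, the clamp that 2 of the genotypes alter, had a log2 fold change of 0.22 ± 0.10 that did not pass the test (edgeR adjusted p = 0.0825), whereas without double mutant replicate 3 a value of 0.22 passed (0.0118). Of 21 ribosomal protein genes none rose and 1, Rps24, fell (-0.36), whereas without double mutant replicates 3 and 4, 5 rose (Rpl8, Rps2, Rps18, Rplp0 and Rplp1) and Rps24 fell. Rps24 lost its call without Rev1 knockout replicate 3, Pcna K164R replicate 2 or WT replicate 3 (edgeR adjusted p = 0.0515 to 0.0635).

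Markers of further cell types were given the same reading, beside 15.5% of all genes tested higher and 17.7% lower. Without double mutant replicates 3 and 4, 1650 of all 9354 genes tested were higher and 1571 lower. Of 24 genes of monocytes and granulocyte-monocyte progenitors, 1 is also on the resident macrophage list, the macrophage growth factor receptor Csf1r (4.04 ± 0.29 on the log2 scale). Of the other 23, 10 were tested and 2 rose, the immunoglobulin receptor Fcgr3 (2.76) and Ms4a6c (0.82). The remaining calls were 6 genes that fell, with the granule protease Elane down by 2.03. Of 18 hepatocyte genes 4 were tested, 3 rose and 1 fell. The 3 that rose were Trf and the metallothioneins Mt1 (2.09 ± 0.29) and Mt2 (2.20 ± 0.37), which other cells make as well. Albumin (Alb), the defining hepatocyte product, had a plate median of 0.0193 per 10,000 in C1q-positive wells and 0.0250 in other wells. Of 10 mast cell genes 5 were tested and none passed. Of 16 endothelial genes 5 were tested, none rose and 4 fell (Esam -2.74, Tie1 -2.17, Egfl7 -1.42 and Eng -0.54), genes that stem cells express too; without double mutant replicates 3 and 4, 1 of 8 (Cdh5) rose and 6 fell. Of 22 interferon-stimulated genes 13 were tested, 4 rose (Rsad2 0.68, Stat2 0.66, Irf7 0.58 and Ifit2 0.53) and 6 fell, and without double mutant replicates 3 and 4, 6 of 22 rose and 7 fell. Rsad2 lost its call without double mutant replicate 1 or 3, Pcna K164R replicate 1 or 2, or WT replicate 1 or 3 (edgeR adjusted p = 0.0528 to 0.32), and its value without WT replicate 1 was 0.35. Ifit2 lost its call without Rev1 knockout replicate 2 or 3, Pcna K164R replicate 1 or WT replicate 1 (edgeR adjusted p = 0.0761 to 0.13). Of 11 MHC class II genes 1 was tested, H2-DMa, and it fell (-1.05). No stromal gene of 14 measured was tested.

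The red cell genes also rose when only weakly C1q-positive wells were used, which are a subset of the 179 set against the same other wells. In 86 wells of 5 to below 10 C1q UMIs per 10,000 on 9 plates, 662 of 6511 genes tested (10.2%) were higher than in other wells and 820 (12.6%) lower. Of the erythroid genes 18 were tested, 17 rose and 1 fell (median log2 fold change 1.74), and of the haem synthesis genes 12 were tested, 10 rose and 1 fell (1.14). Klf1 rose by 1.81, Tfrc by 1.17 and Rhag by 1.84 on the log2 scale. Of the progenitor antigens 11 were tested, 8 fell and 1, the sialophorin gene Spn, rose (0.41), and Kit at 0.14 did not pass the test (edgeR adjusted p = 0.438).

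In the 18 wells of 50 or more C1q UMIs per 10,000, on 4 plates, 487 of 9700 genes tested (5.02%) were higher than in the other wells of those plates and 979 (10.1%) lower, and the median log2 fold change of all genes was -0.84, so values are read against that shift. Of the erythroid genes 19 were tested, none rose and 3 fell, the carbonic anhydrase Car2 by 2.91 on 17 UMIs, Ermap on 3 UMIs and Car1 on none. Of the haem synthesis genes 14 were tested, none rose and 3 fell, among them Cpox by 2.06 on 10 UMIs and Alad on 2 UMIs. Kit fell by 3.42 (edgeR adjusted p = 1.3e-06) on 6 UMIs and Hlf by 2.96 on 9 UMIs. Of the 21 lysosomal genes outside the resident macrophage list, 19 rose, again with the limit from the filter on low counts. Of the iron genes outside it 17 were tested and 5 rose, namely Slc11a1, Hfe, Slc48a1, Trf (4.75) and Ftl1 (2.39). Slc11a1 and Hfe were not among the genes tested in wells of 5 to below 10. Their level in the highest band may have carried them past the filter, and Hfe had 275 UMIs over all 2909 other wells. Tfrc at -1.08 and Fth1 at 0.92 did not pass the test. Ly6e, a relative of Sca-1 in the antigen list, rose by 1.31. S phase genes fell in 17 of 22 tested and G2 and mitosis genes in 18 of 24, and ribosomal protein genes in 20 of 21.

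Summed over each list, erythroid transcripts made up 43.1, 43.2, 23.1 and 6.40 of 10,000 UMIs in the 4 bands from the lowest up, against 13.9 in wells with no C1q UMI and 22.3 in other wells with some. Haem synthesis transcripts made up 24.2, 25.1, 16.3 and 4.59, against 8.56 in wells with none and 13.6 in other wells with some. Lysosomal transcripts had 29.5, 45.5, 74.7 and 248.6, against 14.0 in wells with none and 14.6 in other wells with some, and iron and haem handling transcripts 62.9, 75.5, 90.6 and 236.6, against 28.7 in wells with none and 36.9 in other wells with some. Ribosomal protein transcripts had 575.7, 575.1, 514.7 and 286.5, against 577.9 in wells with none and 581.5 in other wells with some. In the highest band the 95% Poisson interval, which covers counting error only, was 5.11 to 7.91 for the erythroid and 3.51 to 5.90 for the haem synthesis transcripts.

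**Figure D4:**
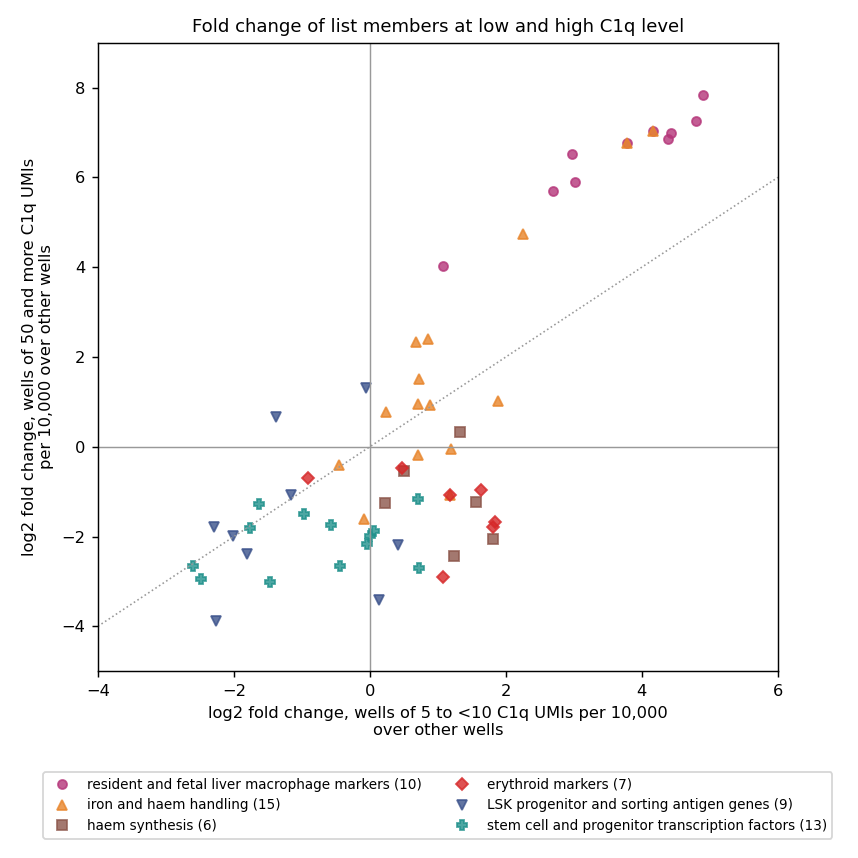
Log2 fold change over other wells of 57 genes from 6 lists, in wells of 5 to below 10 C1q UMIs per 10,000 (horizontal axis) and in wells of 50 or more (vertical axis); 30 genes with 3 or fewer UMIs in the wells of 50 or more are not drawn. Erythroid and haem synthesis genes lie mostly to the right of 0 and below 0, and macrophage genes lie above 0 on both axes.

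Depth and quality were compared over the same 11 plates with an exact two-sided permutation test that flips the sign of each plate's difference, whose smallest possible p is 0.00098. The median C1q-positive well held 2602 to 45460 UMIs by plate, and the median other well 1702.5 to 34547.5. C1q-positive wells had more UMIs on 9 of 11 plates, with a mean log2 ratio of 0.19 ± 0.76 (SD, n = 11 plates) and p = 0.452 by the exact permutation test. Genes seen per 1000 UMIs were fewer on 9 of 11 plates, by a mean of 9.0 ± 12.6 (exact permutation p = 0.0342, 0.137 when adjusted over 4 measures). The mitochondrial share was higher by 0.226 ± 0.885 percentage points (exact permutation p = 0.408), and the ERCC share differed by -0.512 ± 1.23 points (exact permutation p = 0.211). Double mutant replicate 1, which held 9 of the 18 wells of the highest band, decided this: without it, the mean log2 ratio of UMIs was 0.39 ± 0.36 (SD, n = 10 plates; exact permutation p adjusted over 4 measures 0.0195), the difference in genes -9.65 (0.0495) and that in ERCC share -0.799 (0.0195). C1q-positive wells were thus deeper than other wells on 9 of the 10 remaining plates, and the part of this in the gene differences was not tested. Without WT replicate 3 the difference in genes was -11.3 (0.0234).

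The list counts were also taken without deep wells. With wells above 2 times their plate's median UMIs left out, 128 C1q-positive wells of 8 plates remained, 17 of 20 erythroid genes tested rose and 1 fell, and the median log2 fold change was 2.14. Of all 8818 genes tested there, 992 rose and 936 fell. Among C1q-positive wells of 20 or more per 10,000 set against other wells, none of 19 erythroid genes (median log2 fold change 0.18) and none of 14 haem synthesis genes (0.05) passed edgeR's test, with 1 and 0 of them at an unadjusted p under 0.05, beside a median of -0.27 for all genes. In the same fit Kit fell by 1.23 on the log2 scale. Without double mutant replicates 3 and 4, 18 of 20 erythroid genes rose and 1 fell, 11 of 14 haem synthesis genes rose and 1 fell, and 11 of 15 antigen genes fell. In the first session alone 18 of 22 erythroid genes rose and 1 fell, and in the third alone 18 of 22 rose and 1 fell; the second held too few C1q-positive wells for a value. Of all genes tested, 1175 of 10160 rose in the first session alone and 737 of 9259 in the third alone. The 179 wells used 143 plate positions, 34 of them on 2 or more plates. Shared positions numbered 7 over 13 plate pairs from the same flow cell and 32 over 53 other pairs. No chance level was computed for this sharing.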

How the data were processed

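The authors deposited 3 tables per plate with genes in rows and wells in columns: UMI counts, read counts, and transcript counts, which are expected counts that equal the UMI counts corrected for barcode collisions over 4096 barcodes (largest difference 0.005). The submitters' processing notes name the aligner BWA (0.7.15) and the GRCm38 (mm10) build without saying how they were applied; the treatment of strand and of reads shared by related genes is not given in the sources used here. Deposited UMI counts were used, and ERCC rows were left out of totals. Counts were summed per plate over C1q-positive and over other wells, for 11 plates (Rev1 knockout replicate 1 had 1 C1q-positive well). They were tested with edgeR 4.0.16 in R 4.3.3 (TMM, filterByExpr, quasi-likelihood F test, Benjamini-Hochberg adjustment). The plate was a block because both sums come from the same plate. The procedure was also run on simulated counts with no plate effects and a higher dispersion than the data, so no error rate is drawn from that run. A standard error is the size of the log2 fold change over the square root of F. Expected counts were rounded for the alternative that used them, and DESeq2 1.42.0 was a further alternative. Depth measures were tested by enumerating all sign flips, and scipy 1.17.1 gave the binomial and Poisson intervals. Genes were named by a rule: the C1q chains, Vcam1, Cd5l, Kit, Ly6a, Cd34, Slc40a1, Hmox1, Spic, Gata1, Klf1, Rev1 and Pcna, the 15 smallest p in each direction, and, within a list, its 5 members of smallest p at most; some of these are not described or not reported here; Xpo7, Alas1, Ftl1, Meis1, Spn, Ccna2, Gins2, Ms4a6c, Rsad2, Stat2, Ifit2, Car1, Car2, Ermap, Ly6e, Tal1, Zfpm1, Myc, Siglec1, Mertk, Cd163, Lyz2, Slc11a1, Hfe, Slc48a1, Cdh5, the 5 ribosomal protein genes that rose without double mutant replicates 3 and 4, and Alb were named after their values were seen. The wells and the gene lists were chosen with earlier results of these data known.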

Additional observations from a re-analysis of the deposited data

Results flagged for a closer look

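Among the 4 double mutant plates, replicate 1 stood apart in the median C1q level of its C1q-positive wells, at 56.7 UMIs per 10,000, and 9 of its 18 wells were in the highest band; the other double mutant plates had 6.16 to 9.23. In the same comparison its C1qc level, 11.6 per 10,000 summed UMIs, was far from those of the other plates. Double mutant replicate 3 had 426.5 genes per 1000 UMIs in its median C1q-positive well, below the other double mutant plates, and 430.0 in its median other well. A gap of this size is met by chance in about 1 in 20 groups. Many more values were checked than are given here, with no correction for their number. The C1q level and C1qc are also values that chose the wells.

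Kit, whose overall log2 fold change was 0.04, was higher in C1q-positive than in other wells on each Rev1 knockout and Pcna K164R plate of the fit and lower on each WT plate. On the double mutant plates it was higher on 3 of 4. Rsad2, an interferon-stimulated gene with an overall log2 fold change of 0.68, was higher on each Pcna K164R plate and lower on each Rev1 knockout plate of the fit. The differences between genotypes were not tested.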

How the results depend on the processing

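The 1222 higher and 1395 lower genes were within 1.5 times of these counts under most alternatives. Leaving out 1 plate at a time gave 935 to 1471 higher and 1165 to 1707 lower genes. The number of lower genes was 2673 with no filter on low counts. Both counts were lower after thinning to 1000 UMIs per well (30 and 35 of 758 genes tested), and the higher count was 361 with read counts and 737 in the third session alone. With no replicate block, that is without the plate pairing, 690 genes were higher and 907 lower. A C1q minimum of 10 per 10,000 left 90 wells and one of 20 left 43 wells, with 523 higher and 296 lower genes. Wells of 5 to below 10 alone gave 662 and 820, and wells of 50 or more alone gave 487 higher genes; these subsets, and the fits without double mutant replicates 3 and 4, were added after the data were seen. The cause was not tested where a count moved.

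Depth and quality changed with single plates: leaving out 1 at a time, the log2 ratio of UMIs was 0.109 to 0.393, the difference in genes per 1000 UMIs -11.3 to -6.80, and that in ERCC share -0.799 to -0.295 percentage points.

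At a minimum of 20 C1q UMIs per 10,000 the sign turned for Gata1 (-0.13), Gfi1b (-0.10), Kit (-1.23), Myc (-0.12), Tal1 (-0.09), Zfpm1 (-0.18), Car1 (-0.26), Car2 (-0.65), Ccna2 (-0.81), Mcm2 (-0.76), Rrm2 (-0.27) and Slbp (-0.84), of which only Kit passed the test. In wells of 50 or more, against a median of -0.84 for all genes, it turned for Cpox (-2.06), Kit (-3.42), Mt2 (-2.42), Myc (-2.70), Pcna (-1.99), Car2 (-2.91), Ccna2 (-2.36), Mcm2 (-2.98), Rrm2 (-1.56), Slbp (-1.64) and Spn (-2.19), which passed the test, and for Cdc6 (-1.46), Fech (-1.23), Gata1 (-0.97), Klf1 (-1.78), Mt1 (-0.90), Rhag (-1.68), Tfrc (-1.08) and Zfpm1 (-1.17), which did not. On 3 or fewer UMIs in those wells, fitted values that are no measured folds turned for Abcb10 (-0.82), Alad (-2.84), Aqp1 (-1.44), Ccne1 (-2.05), Epor (-2.46), Gfi1b (-2.31), Tal1 (-2.76), Ermap (-2.46) and Car1 (-9.89). Thinning turned Mcm2 (-0.03) and Slbp (-0.19), and the third session alone turned Rsad2 (-0.30), none past the test. Under another scaling, or with 1 plate left out, no gene named here changed sign where either of the compared values passed the test. Sign changes between values that both fell short of the test, as is possible for Kit at 0.04, were not recorded.

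Wells hold few UMIs of each gene, and a gene with no UMI in a well was not detectable there at this depth. The highest band rests on 18 shallow wells of 4 plates. Well content (1 cell or several, or free RNA) cannot be read from these counts, and C1q-positive wells were deeper than other wells on 9 of 11 plates. Genotype, session and plate cannot be told apart for the numbers of wells.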
